A study of Rattus norvegicus with 8 samples.

Results

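Macrophages of the rat liver were followed on the arrays through 10 marker genes: C1qa, C1qb, C1qc, Clec4f, Cd68, Cd163, Marco, Csf1r, Vsig4 and Lyz2. The platform annotation gave exactly 1 of these symbols to 8 probe sets, 1 set each for 8 of the 10 genes, out of 31042 probe sets that are not the manufacturer's controls and 14217 genes named by a set with 1 symbol. Marco and Vsig4 had 0 probe sets under this rule and have no value here. A probe set is a group of short probes on the array that together report 1 signal for a transcript. The samples were livers of 8 male Goto-Kakizaki (GK) rats, a strain bred to be diabetic while lean, aged 18 weeks. All had eaten AIN-93G, a purified diet, for 12 weeks. In 4 rats, the control diet group, nothing was added to it, and in the other 4, the persimmon peel diet group, it contained the PP extract, whose dose is not given in the sources used here. The labels number the livers 1 to 4 within each diet, and with 1 array per numbered liver n = 4 per diet throughout. The numbers are used below to name the rats, as shorthand for their arrays, since no label ties an array to a rat. Every value below is a MAS5 signal, the intensity that the manufacturer's algorithm reports in arbitrary units on a linear scale.

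Kupffer cells are the resident macrophages of the liver. They sit inside the sinusoids, where they take up bacteria, worn-out red cells, immune complexes and modified proteins from portal blood, and they depend on signalling through the CSF1 receptor for survival. The markers used here cover this biology from several sides. Clec4f is a galactose-binding C-type lectin receptor that in rodents is found on Kupffer cells. C1qa, C1qb and C1qc encode the 3 chains of C1q, the recognition part of the first complement component, which is made mainly by macrophages. Csf1r is the receptor for CSF1 and IL-34. Cd68 is a glycoprotein of late endosomes and lysosomes, Cd163 takes up haptoglobin-haemoglobin complexes, Marco is a scavenger receptor, Vsig4 is a complement receptor, and Lyz2 encodes lysozyme, an enzyme that cuts bacterial cell walls. In whole liver, fewer cells of a type and less RNA per cell cannot be told apart. The labelled tissue was checked on hepatocyte markers: 9 of 10 had a probe set, all 9 passed the filter on dim sets, and the apolipoprotein gene Apoa2 lay between 10462 and 12434 on the 8 arrays.

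The upstream sequences of the genes on which the results turn are shown because C1qa and C1qb were high on the same array, whereas Lyz2 was not high there. In the RefSeq gene table the 3 C1q genes stand in a row, with C1qc between C1qb and C1qa. Sequences of 9 of the 10 markers, all but C1qc, were taken from RefSeq's table of gene starts (build GRCr8). Each sequence is the 250 bases upstream of the annotated start, 5′ to 3′ on the strand of the gene. Capitals mark GAGGAA or GGAAGT, or the same motif read on the other strand (TTCCTC and ACTTCC). Both contain GGAA, the core that transcription factors of the ETS family recognise, among them PU.1, which is required for the macrophage lineage. The motifs can overlap each other, and they were picked after the sequences had been seen.
C1qa, chr5:154419934-154420183, minus strand: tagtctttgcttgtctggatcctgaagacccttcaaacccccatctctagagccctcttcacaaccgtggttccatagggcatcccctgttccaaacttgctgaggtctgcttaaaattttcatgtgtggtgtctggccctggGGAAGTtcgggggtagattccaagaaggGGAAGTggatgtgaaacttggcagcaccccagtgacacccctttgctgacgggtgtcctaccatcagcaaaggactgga
C1qb, chr5:154407828-154408077, minus strand: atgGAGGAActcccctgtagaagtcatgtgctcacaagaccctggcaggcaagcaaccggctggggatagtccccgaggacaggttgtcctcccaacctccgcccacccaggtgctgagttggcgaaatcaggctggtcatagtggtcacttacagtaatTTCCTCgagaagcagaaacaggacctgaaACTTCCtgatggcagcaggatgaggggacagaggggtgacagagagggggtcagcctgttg
Lyz2, chr7:54798012-54798261, minus strand: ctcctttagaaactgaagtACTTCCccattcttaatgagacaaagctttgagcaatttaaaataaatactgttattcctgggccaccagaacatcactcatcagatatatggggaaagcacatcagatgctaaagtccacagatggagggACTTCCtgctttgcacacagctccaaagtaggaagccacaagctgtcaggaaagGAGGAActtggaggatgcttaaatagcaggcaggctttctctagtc
The window of C1qa held GGAAGT at 2 places and GAGGAA at 0, and that of C1qb held GAGGAA at 2 places and GGAAGT at 1. Lyz2 held GAGGAA at 1 place and GGAAGT at 2. Of the 9 markers in that table, 5 held GAGGAA and 5 held GGAAGT, against 23.3% and 19.2% of 33469 upstream windows of the same length. The markers with neither motif in this window were Cd163 and Vsig4. Either motif was found in 7 of the 9, against 36.7% of all windows. Because the motifs were picked with these sequences in view, the shares over all windows do not test an enrichment. A match describes the letters only.

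No marker differed between the diets beyond the spread of the samples, and 1 array, that of persimmon peel rat 3, stood highest in most of them. With 1 array per liver, the animal, its RNA and its array cannot be told apart. In persimmon peel rat 3 the C1q chains, Clec4f, Cd68, Cd163 and Csf1r all had their highest signal of the 8 arrays, at 1.27 to 1.52 times the next highest array. Lyz2 was the exception, with its second lowest signal in that rat. In the limma fit over all 15521 tested probe sets, 0 of the 8 marker sets were called lower and 0 were called higher on the persimmon peel diet at a Benjamini-Hochberg adjusted p under 0.05, where 4.53% of all tested sets were called lower and 0.425% higher. At an unadjusted p under 0.05 the fit gave 0 of the 8, against 19.6% of all tested sets. The 4 arrays of one diet stood apart from the 4 of the other in 0 of the 8 marker sets and in 12.9% of all tested sets.

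Clec4f (probe set 1368755_at), the most Kupffer-specific of the markers in rodents, had signals of 1355, 1784, 1966 and 1610 in control rats 1 to 4 and 1953, 1635, 2590 and 1632 in persimmon peel rats 1 to 4. Rat 3 of the persimmon peel diet was highest and control rat 1 lowest, and the other 6 values of the 2 diets lay intermingled. Clec4f averaged 1679 ± 260.1 in controls and 1953 ± 451 in persimmon peel rats (SD, n = 4 each). The log2 fold change, persimmon peel minus control, was 0.20 (SE 0.14, limma adjusted p = 0.453), with a 95% interval from -0.10 to 0.51. Without persimmon peel rat 3, a choice made here and below after the values were seen, it was 0.06, with an interval from -0.19 to 0.32.

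The C1q chains followed the same course. C1qa (1376652_at), the A chain, had signals of 1519, 1561, 1854 and 1753 on the control diet and 1869, 1537, 2839 and 1706 on the persimmon peel diet. The 3 persimmon peel rats other than rat 3 spanned nearly the same range as the controls. The log2 fold change was 0.21 (SE 0.15, limma adjusted p = 0.455, 95% interval -0.10 to 0.53), and 0.03 without rat 3. C1qb (1370215_at), the B chain, had 685, 844, 799 and 858 on the control diet and 804, 822, 1176 and 776 on the persimmon peel diet. Here the other 3 persimmon peel rats lay within the control range, with an SD of 23.0 around a mean of 801 (n = 3). The log2 fold change of C1qb was 0.15 (SE 0.13, limma adjusted p = 0.544, 95% interval -0.12 to 0.42), and 0.01 without rat 3. C1qc (1373025_at), the C chain, had 672, 782, 816 and 811 on the control diet and 837, 746, 1205 and 763 on the persimmon peel diet, with a log2 fold change of 0.18 (SE 0.13, limma adjusted p = 0.493, 95% interval -0.11 to 0.47) that became 0.02 without rat 3. Control rat 1 had the lowest signal of all 8 arrays in each of the 3 chains, but after quantile normalization C1qa was lowest in control rat 2.

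**Figure D1:**
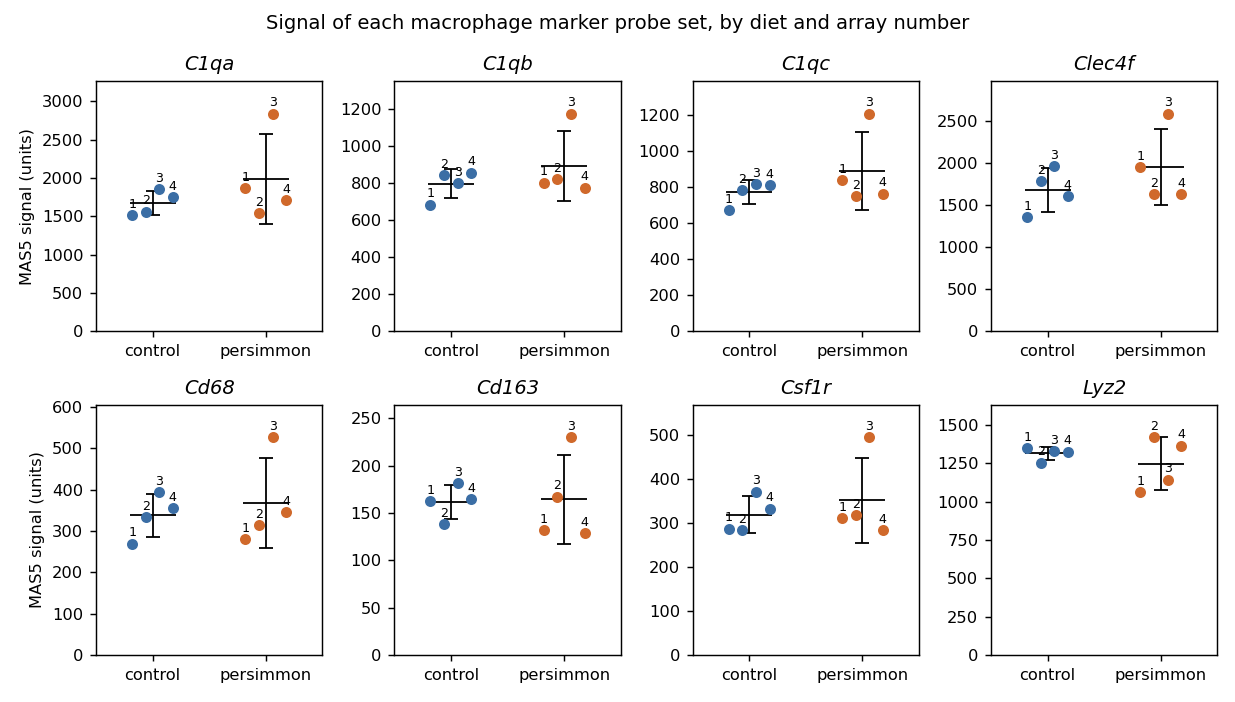
MAS5 signal in arbitrary units (y axis, from 0) of the 8 marker probe sets in 4 control diet livers (blue) and 4 persimmon peel diet livers (orange), with the rat number beside each point; the horizontal line is the mean and the bar 1 SD either way. Persimmon peel rat 3 is the highest point in every panel except Lyz2. In those panels the range of the other 3 persimmon peel rats overlaps that of the controls. In Lyz2, persimmon peel rats 1 and 3 lie below every control and rats 2 and 4 above every control.

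The 3 chains are built into 1 protein, so their agreement over the arrays was tested on log2 signals of the 8 livers, in 3 pairs. C1qa and C1qc correlated with Pearson's r = 0.97 (exact permutation p = 0.000694, adjusted over 3 pairs 0.00208) and Spearman's rho = 0.98 (exact p = 0.000397, adjusted 0.00119). C1qb and C1qc had r = 0.96 (exact permutation p = 0.00729, adjusted 0.0109) and rho = 0.57 (exact p = 0.151, adjusted 0.227). For C1qa and C1qb, r was 0.87 (exact permutation p = 0.0355, adjusted 0.0355) and rho 0.48 (exact p = 0.243, adjusted 0.243). The 2 arrays farthest from the median of the first gene of each pair were persimmon peel rat 3 and control rat 1 for C1qa, and the same 2 for C1qb. Without them r was 0.84 for C1qa and C1qc (n = 6, exact permutation p = 0.0514), 0.10 for C1qb and C1qc (exact permutation p = 0.825) and -0.36 for C1qa and C1qb (exact permutation p = 0.476). The relation of C1qb with the other chains therefore rested on those 2 livers. Removing only persimmon peel rat 3, a choice made after the values were seen, left r = 0.82 for C1qa and C1qc (n = 7, exact permutation p = 0.0135), 0.77 for C1qb and C1qc (exact permutation p = 0.0589) and 0.31 for C1qa and C1qb (exact permutation p = 0.568). With each value centred on the mean of its diet, r was 0.97, 0.95 and 0.85 in the same order. Each diet alone has 4 livers, too few for a value of its own.

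Csf1r (1388784_at), the growth factor receptor of the lineage, had signals of 287, 284, 371 and 333 on the control diet and 311, 318, 495 and 283 on the persimmon peel diet. Persimmon peel rat 3 was again the highest, and the lowest value, in persimmon peel rat 4, lay within 1 unit of control rat 2. The log2 fold change was 0.12 (SE 0.16, limma adjusted p = 0.73, 95% interval -0.22 to 0.45). It turned to -0.06 without rat 3.

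The lysosomal marker Cd68 (1375010_at) had signals of 269, 334, 394 and 356 on the control diet and 281, 315, 527 and 346 on the persimmon peel diet. Its log2 fold change of 0.09 (SE 0.17, limma adjusted p = 0.819, 95% interval -0.28 to 0.46) turned to -0.10 without rat 3 and to -0.02 without control rat 1, whose value was the lowest of the 8. Cd163 (1393917_at), the haemoglobin scavenger receptor, had 162, 138, 181 and 164 on the control diet and 132, 167, 230 and 128 on the persimmon peel diet. Persimmon peel rats 1 and 4 were the lowest of the 8 and rat 3 the highest, so that the diets overlapped from end to end. The log2 fold change of Cd163 was -0.01 (SE 0.17, limma adjusted p = 0.982, 95% interval -0.37 to 0.35), and -0.19 without rat 3, the most negative of the 8 markers in that fit.

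Lyz2 (1370154_at), the lysozyme gene, ran differently. Its signals were 1348, 1254, 1329 and 1326 on the control diet and 1064, 1418, 1143 and 1366 on the persimmon peel diet. The controls lay close together, with a mean of 1314 ± 41.3, and the persimmon peel rats spread wider around 1248 ± 171 (SD, n = 4 each), with rats 1 and 3 below every control and rats 2 and 4 above every control. The log2 fold change was -0.08 (SE 0.10, limma adjusted p = 0.673, 95% interval -0.29 to 0.12), and -0.05 without rat 3. The arrays of persimmon peel rats 1 and 3 also had the lowest log2 ratios of the middle to the 3′ control set of beta-actin, a measure of how far along a transcript the labelled RNA reaches. These were -1.18 in rat 1 and -1.09 in rat 3, against -0.92 in rat 2, -1.06 in rat 4 and -0.78 to -0.75 in the controls. The diets differed in this ratio by -0.30 (two-sided exact permutation p = 0.0286, which 4 against 4 arrays cannot go below, adjusted over 4 control ratios 0.0571). For beta-actin, 5′ over 3′ differed by -0.28 with the same exact permutation p, whereas the GAPDH ratios differed by -0.0063 for middle to 3′ (exact permutation p = 0.857) and -0.14 for 5′ to 3′ (exact permutation p = 0.0857, adjusted 0.114). The other ratios did not all single out rats 1 and 3. In beta-actin 5′ to 3′, rat 1 had -1.82, the highest of its diet, and rat 3 had -2.29. In GAPDH middle to 3′, rat 1 was lowest at -0.64, then control rat 3 at -0.63, with persimmon peel rat 3 at -0.59. In GAPDH 5′ to 3′, persimmon peel rats 1 and 3 were the lowest, at -0.54 and -0.44. The part of these ratios in the values of Lyz2 or of any other marker was not tested.

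**Figure D2:**
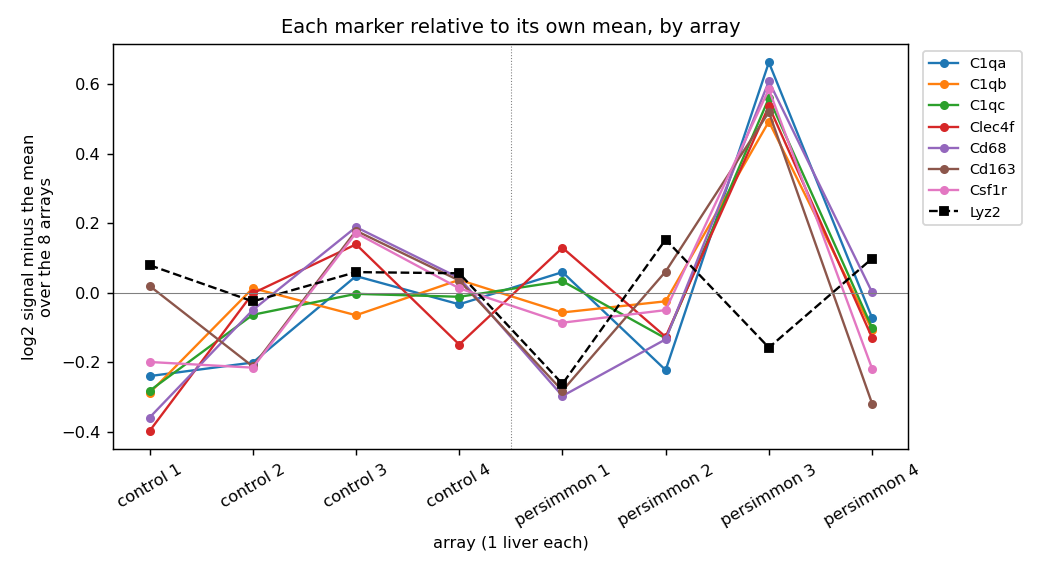
Log2 signal of each marker minus its own mean over the 8 arrays (y axis) in the 8 livers (x axis), with control rats left and persimmon peel rats right of the dotted line; Lyz2 is the dashed black line. The 7 other markers peak together at persimmon peel rat 3, 0.56 to 0.76 above the mean of the other 7 livers on the log2 scale, while Lyz2 lies 0.18 below it.

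How far rat 3 stood apart is seen against its whole array. Its log2 signal exceeded the mean of the other 7 livers by a median of 0.64 over the 7 markers other than Lyz2, and by 0.16 over all tested probe sets. The smallest excess of the 7 markers was 0.56, and 7.67% of all tested sets had a larger one. That array also had the highest median signal, 39.2 units against 33.2 to 37.4 on the others. It held the highest signal in 7 of the 8 marker sets and in 38.3% of all tested sets. After quantile normalization, which gives all arrays the same distribution of signals, it still held the highest signal in 7 of the 8 marker sets and in 20.1% of all tested sets, with a median excess of 0.51 over the 7 markers and 0.02 over all tested sets. The array of rat 3 had a beta-actin 5′ to 3′ ratio of -2.29, the lowest of the 8, where the others lay between -1.91 and -1.55. Whether this ratio plays a part in the height of the markers was not tested.

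The spread between rats was correspondingly unequal. Over the 7 markers other than Lyz2, the SD of log2 signals within a diet was 0.13 to 0.23 in the controls and 0.28 to 0.39 in the persimmon peel rats, and 0.04 to 0.21 in the latter without rat 3. With all 8 livers, 6 of the 8 marker sets had a positive log2 fold change, with a median of 0.13 over the 8, against a median of -0.0071 over all tested sets, of which 48.6% were positive. Rat 3 was singled out after the values were seen. Taking out the highest value of a diet lowers its mean, so the fold changes of the 7 markers had to fall. Without rat 3, 4 were positive and 4 negative, with a median of -0.02 against -0.06 over all tested sets. In that fit limma called 0 of the 8, gave 0 an unadjusted p under 0.05, where 19% of all tested sets had one, and its smallest adjusted p for a marker was 0.498. Over the 8 markers and all livers, the 95% intervals had their lowest bound at 0.773-fold, for Cd163, and their highest at 1.44-fold, for C1qa. For Lyz2 the interval was narrower, from 0.817-fold to 1.09-fold.

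**Figure D3:**
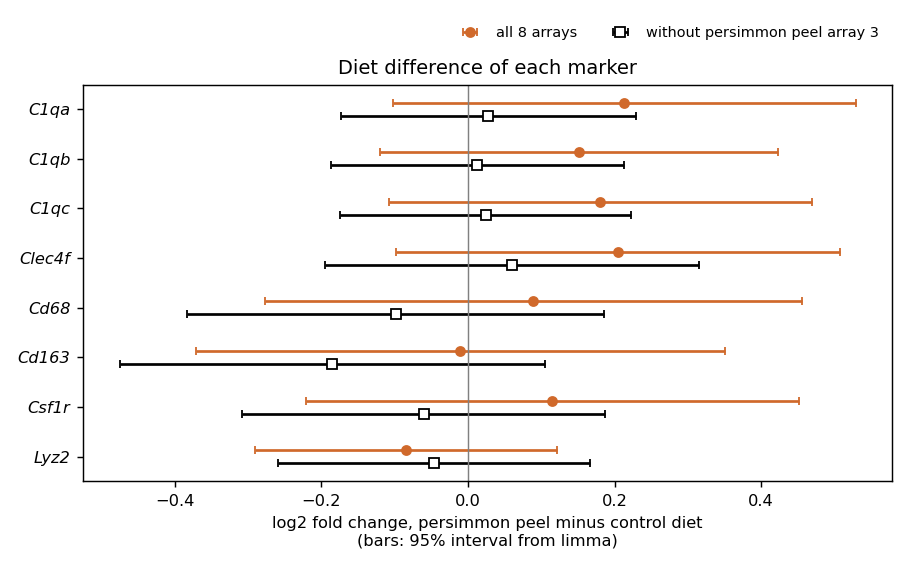
Log2 fold change of each marker, persimmon peel minus control diet (x axis), with all 8 arrays (orange circles) and without persimmon peel array 3 (open black squares); bars are 95% intervals from limma. Every interval crosses 0 in both fits, and the estimates of C1qa, C1qb, C1qc and Clec4f shrink to between 0.01 and 0.06 without that array. Their fall was fixed in advance, since that array was the highest in these genes.

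Other genes of Kupffer cells were also high on the array of persimmon peel rat 3. Their list does not share a gene with the markers, but it was chosen with earlier results of these data known. Of 16 listed genes 11 had a probe set and 10 were tested, on the brightest set of each gene. Limma called 0 of the 10 (0 at an unadjusted p under 0.05), where over all 9174 tested genes, taken the same way, 1.93% were called lower, 0.469% higher and 16.3% had an unadjusted p under 0.05. The 10 had a median log2 fold change of 0.09 with all livers and -0.03 without rat 3, beside 0.01 and -0.04 over the 9174 tested genes. The signal was highest in persimmon peel rat 3 in 10 of the 10, and in 44.3% of all tested genes. After quantile normalization it was highest there in 8 of the 10, and in 23.7% of all tested genes. Among these sets the smallest p belonged to Nr1h3, the nuclear receptor LXR alpha, at 0.16 (SE 0.09, limma adjusted p = 0.373) and Pltp, a phospholipid transfer protein, at 0.22 (SE 0.14, limma adjusted p = 0.429). Dimmer sets of 2 of the genes had an unadjusted p under 0.05 without being called, both singled out after their values were seen. Slc40a1, the iron exporter ferroportin, was at -0.31 in such a set (SE 0.11, limma adjusted p = 0.13) and at 0.08 in its brightest, and Cfp, properdin, was at 0.34 (SE 0.15, limma adjusted p = 0.205) and 0.18. In Pltp the controls lay between 330.3 and 344 and the persimmon peel rats had 342, 404, 545 and 309, with rat 3 the highest.

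General leukocyte and myeloid genes gave 0 calls among 14 tested (1 at an unadjusted p under 0.05), with 10 of the 14 highest in rat 3, and 9 after quantile normalization, beside 44.3% and 23.7% of all tested genes. Coro1a, an actin-binding protein of leukocytes, was at 64.0 to 87.7 in the controls and at 86.5, 90.8, 150 and 118 in the persimmon peel rats, a log2 fold change of 0.49 (SE 0.18, limma adjusted p = 0.138). Ptprc, the CD45 antigen of all leukocytes, had a log2 fold change of -0.27 in its brighter set (SE 0.13, limma adjusted p = 0.268). Genes of recruited monocytes and inflammatory macrophages were mostly too dim to test, with 4 of 14 tested and 0 called (0 at an unadjusted p under 0.05). The 4 were all highest in rat 3, and 3 of them after quantile normalization. Gpnmb, a glycoprotein of lipid-laden macrophages, had a log2 fold change of 0.10 (SE 0.15, limma adjusted p = 0.742), with 412 in rat 3. Of the same list, Il1b, the interleukin 1 beta gene, had 96.4 in rat 3 and 36.0 to 58.9 in the other 7 livers. The remaining tested genes stood closer: Lgals3 had 304 against 197 to 303, and Cd14 had 2139 against 1703 to 2009. Of the genes too dim to test, Itgax, Ccl2, Tnf and Il6 were highest in rat 3. Ccr2, Cd9, Trem2, Spp1, Cx3cr1 and Nos2 were highest in other livers. Ccr2, the receptor that brings monocytes into tissue, Trem2 and Il6 lay at or below 14.5 on every array, the highest signal of the 27 bacterial control sets that the samples should not contain.

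Upstream of the markers, the CSF1 axis and the regulators of the lineage had 9 of 13 genes tested, of which limma called 0 (1 at an unadjusted p under 0.05) on the brightest set of each. This list includes Csf1, the ligand of Csf1r, and its median log2 fold change was 0.05. On those sets the smallest p values belonged to Cebpb at -0.17 (SE 0.08, limma adjusted p = 0.209) and Cebpa at 0.20 in its brightest set (SE 0.10, limma adjusted p = 0.273), both transcription factor genes that hepatocytes also express. Dimmer sets, picked out after their values were seen, gave smaller p values that were not called: 3 further sets of Cebpa at 0.25 to 0.38 (limma adjusted p from 0.0781 to 0.118), while another lay at -0.16, and 1 set each of Zeb2 at 0.46 and Maf at 0.41 (limma adjusted p = 0.141 and 0.148), both transcription factors of the macrophage lineage. In the brightest sets Zeb2 was at -0.16 and Maf at -0.06, so the sets of these genes disagreed in sign. Among partners of C1q and complement receptors, limma called 0 of 9 tested genes (3 at an unadjusted p under 0.05, which 16.3% of all tested genes had). The protease gene C1s, whose product joins C1q in the C1 complex, had 5667 to 6212 in the controls and 5103, 5232, 5739 and 5077 in the persimmon peel rats, a log2 fold change of -0.16 (SE 0.06, limma adjusted p = 0.16). Serping1, the inhibitor of that complex, was at -0.15 (SE 0.06, limma adjusted p = 0.175). These genes were not at their highest in rat 3, but 5 of the 9 were, and 4 after quantile normalization, beside 44.3% and 23.7% of all tested genes. One of the 5 was C1r, the other protease of the complex, with 4710 in rat 3 and 3620 to 4372 in the other 7 livers.

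Markers of the other liver cells are given for comparison by array. Hepatocyte markers were highest in rat 3 in 0 of 9 genes, and in 1 after quantile normalization, beside 44.3% and 23.7% of all tested genes. Their summed signal there was 87108, the highest of the persimmon peel rats, whose lowest was 82004. It lay below the 89326 to 96284 of the controls. Their smallest p values belonged to Tdo2, an enzyme of tryptophan breakdown, at -0.25 (SE 0.08, limma adjusted p = 0.092) and Apob, the main apolipoprotein of very low density lipoprotein, at -0.17 (SE 0.06, limma adjusted p = 0.104). For sinusoidal endothelial cells 5 of 7 genes were highest in rat 3, and 4 after quantile normalization, beside 44.3% and 23.7% of all tested genes. Their summed signal was 5227 there and 4897 to 5232 in the controls, but a sum follows the brightest genes. Averaged over the 7 genes as log2 signals minus each gene's mean, rat 3 lay at 0.28, against -0.03 to 0.04 in the controls. In that list limma called 1 of the 7 genes lower on the persimmon peel diet, beside 1.93% of all tested genes. This was Fcgr2b, an inhibitory Fc receptor (-0.42, SE 0.08, limma adjusted p = 0.0090). For the 8 markers the sum was 10205 in rat 3 against 6298 to 7711 in the controls. Of dendritic cell markers 3 of 3 tested were highest in rat 3, also after quantile normalization. These were Cd74, RT1-Ba and RT1-Da. Flt3 and Clec9a of the same list were too dim to test and had their highest signals in control rats 2 and 4. Of 4 neutrophil, 10 T and NK cell and 3 B and plasma cell markers with a probe set, 1 of each list was bright enough to test, with S100a8, Csf3r, Cd3d, Cd8b and Cd79b at or below the bacterial controls on every array. Lcn2, lipocalin 2, which neutrophils and inflamed hepatocytes both make, had a signal of 708 in rat 3 and 48.3 to 77.2 in the other 7 livers. The part of any of these genes in the height of the macrophage markers was not tested.

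**Figure D4:**
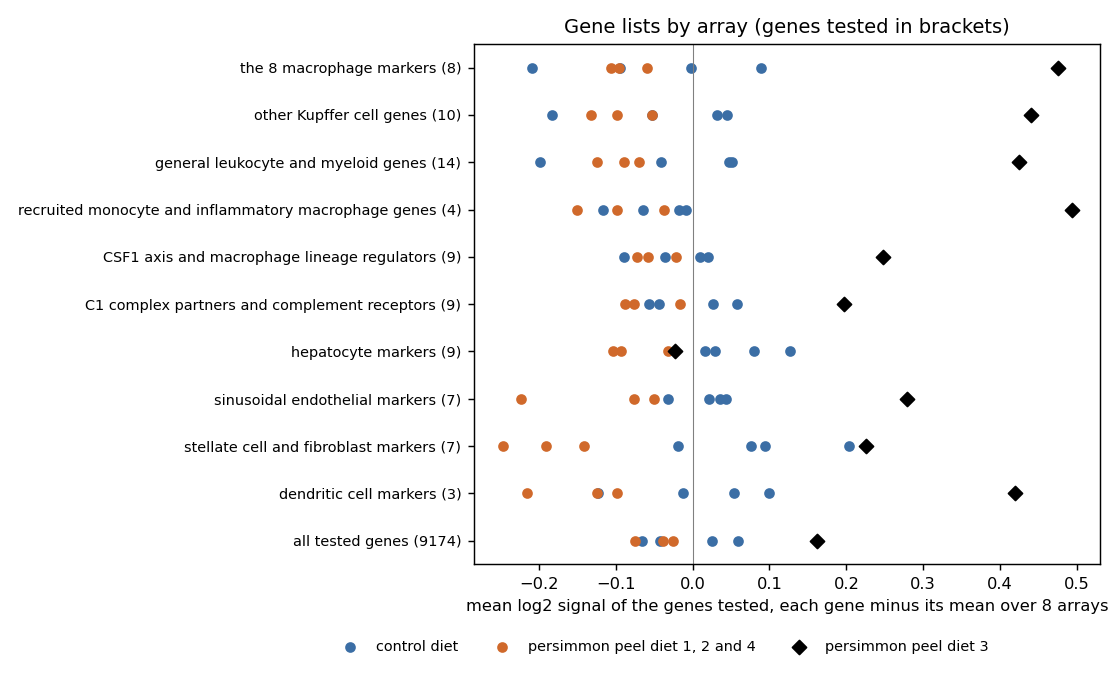
Mean log2 signal of the tested genes of each list, each gene minus its mean over the 8 arrays (x axis), for lists with 3 or more tested genes (y axis, number tested in brackets): control livers in blue, persimmon peel rats 1, 2 and 4 in orange and rat 3 as a black diamond. Rat 3 lies at 0.48 for the 8 markers and 0.44 for the other Kupffer cell genes, with the other 7 livers between -0.21 and 0.09, against 0.16 for all tested genes and -0.02 for hepatocyte markers. It was as far out for leukocyte genes (0.42) and dendritic cell markers (0.42, from Cd74, RT1-Ba and RT1-Da only). For recruited monocyte and inflammatory macrophage genes it lay at 0.49, from Gpnmb, Lgals3, Il1b and Cd14 only.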

How the data were processed

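Per the labels' protocols, total liver RNA was made into biotin-labelled cRNA and hybridised to 1-colour Affymetrix arrays. The authors deposited 1 intensity per probe set on a linear scale, made with MAS5 per the submitters' processing notes. Its version, scaling target and calls of presence are unknown here. All 8 columns of values were used and 0 were left over. No read depth exists, so the number of arrays limits the precision.

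Log2 was taken of the signals as deposited. The 57 control sets and the dimmest 50% of the others by mean log2 were left out, which kept 15521 sets, the dimmest with a mean signal of 34.4; all 8 marker sets passed. Array medians spanned 0.24 on the log2 scale, under the limit of 0.5 for centring. Diets were compared with limma (version 3.58.1, R 4.3.3; lmFit, eBayes with intensity trend, two-sided, Benjamini-Hochberg over all tested sets), which was tested on simulated data. Single values were compared with exact permutation tests (scipy 1.17.1).

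Symbols came from the platform annotation, updated through RefSeq. The markers and lists were chosen with earlier results of these data known. The rule for names took all marker sets and, of each list on its genes' brightest sets, the called genes or else the 2 with the smallest p, and the 2 brightest genes of other cell types; for other cell types not every gene it took is printed. Genes at control level, C1r, Csf1, the rest of the recruited monocyte list and the genes said to be singled out were named after their values were seen. Each choice was varied in turn: other scalings (quantile, or array medians centred), 16 added before the log, all sets or the upper 30% by signal tested, limma without the trend, robust or with the replicate block, and each array left out. The design text gives 4 rats per diet, but no label ties an array to a rat, so p-values measure the spread between these samples.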

Additional observations from a re-analysis of the deposited data

Results flagged for a closer look

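In groups of 4 arrays, a liver was marked when its gap to the nearest other liver, divided by the range of the group, was above Dixon's 95% critical value on log2 signals. This was applied to 92 groups, of which 6 were marked; chance marks about 1 group in 20. Among the 16 groups of the macrophage markers 1 was marked, C1qb on the persimmon peel diet, where rat 3 at 1176 stood apart with a ratio of 0.863. The same liver was marked as the highest on its diet for 4 listed genes of other groups. These were Lcn2 at 708 (ratio 0.921), Jchain, the joining chain of secreted antibodies, at 244 (0.91), Nr1h3 at 1938 (0.875) and the class II antigen presentation gene RT1-Ba at 695 (0.864). In the controls, RT1-Da, another class II gene, was marked in rat 1 at 543 (0.886).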

How the results depend on the processing

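Under 16 alternatives, 8 settings and 8 arrays left out in turn, limma called 0 of the 8 markers, and the smallest adjusted p of a marker was 0.19, for C1qa without persimmon peel rat 2 (log2 fold change 0.32). The sign changed in 7 of 128 values. Cd163 went to 0.0073 under quantile normalization. With 1 array left out, Cd68 ran from -0.10 to 0.20, Cd163 from -0.19 to 0.094 and Csf1r from -0.061 to 0.21. C1qa, C1qb, C1qc and Clec4f stayed positive, at 0.03 to 0.32, 0.01 to 0.21, 0.02 to 0.25 and 0.06 to 0.29, and Lyz2 negative, at -0.15 to -0.01. Over all tested sets there were 769 calls, 703 lower and 66 higher. These became 467 (441 and 26) with no filter. Higher calls were 271 under quantile normalization, where 68.8% of calls were lower against 91.4%, 41 in the upper 30% by signal and 33 without the trend. With 1 array left out, calls ran from 309 to 1209, lower ones from 295 to 942 and higher ones from 12 to 267. The replicate block gave 596 lower and 60 higher calls and 0 markers. Over all tested sets, deviations of arrays with the same number were nearly uncorrelated (r from -0.08 to 0.05). Such values cannot settle whether the numbers pair the rats, and the labels do not say. Only control 3 and persimmon peel 3 each correlated best with their own number. The beta-actin middle to 3′ difference ran from -0.34 to -0.26 and the 5′ to 3′ one from -0.33 to -0.18, with a smallest possible exact permutation p of 0.0571, and the GAPDH middle to 3′ one from -0.027 to 0.011. The C1qa and C1qb correlation turned to -0.36 without the 2 farthest livers.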

Other observations

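Control rat 1 had the lowest signal of the 8 livers in 5 of the 8 macrophage marker sets, C1qa, C1qb, C1qc, Clec4f and Cd68, while it was the lowest in 14.9% of all tested sets. After quantile normalization C1qa was lowest in control rat 2, while C1qb, C1qc, Clec4f and Cd68 stayed lowest in control rat 1. In the signals as deposited, control rat 1 lay in the middle of the controls in Cd163 and was the highest of them in Lyz2. The same liver was the lowest of the 8 in Hbb, a beta globin gene of red cells, at 3061 against 4320 to 8192 in the others, and in Alas2, the haem synthesis enzyme of red cell precursors, at 114 against 150 to 397. These are the 2 erythroid genes of 3 listed that had a probe set. Both were highest in control rat 3. Persimmon peel rat 3, the highest in most macrophage markers, had 5705 for Hbb and 245 for Alas2, inside the range of the other livers. The part of blood left in the livers in the level of the macrophage markers was not tested. These genes were singled out after their values were seen.

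Of 9 stellate cell and fibroblast markers, 9 had a probe set and 7 were tested. Limma called 0 of the 7 (0 at an unadjusted p under 0.05), with a median log2 fold change of -0.24, and -0.32 without persimmon peel rat 3. The genes with the smallest p were Lrat, which makes the retinyl esters that stellate cells store, at -0.30 (SE 0.14, limma adjusted p = 0.268) and Rgs5, a regulator of G protein signalling in pericytes, at -0.34 (SE 0.19, limma adjusted p = 0.351). Rat 3 was the highest liver in 2 of the 7, and in 1 after quantile normalization, beside 44.3% and 23.7% of all tested genes. The summed signal of the 7 was 1200 in rat 3, within the 988 to 1385 of the controls. Averaged over the 7 as log2 signals minus each gene's mean, rat 3 lay at 0.22, against -0.02 to 0.20 in the controls.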
